A study of Mus musculus with 36 samples.

Results

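The imprinted growth genes are 10 mouse genes that are expressed mainly from the copy inherited from 1 parent and that act on growth: Mest, Peg3, Igf2, H19, Cdkn1c, Dlk1, Grb10, Igf2r, Peg10 and Plagl1. They were chosen by name, and a spot counted as a member if the platform annotation gave it exactly 1 gene symbol and that symbol was among the 10. Of 15388 spots on the array, 19 qualified, and they represented 9 of the 10 genes, among 6971 genes named in the same way. H19 had 8 spots, Peg3, Igf2 and Peg10 had 2 spots each, and Mest, Cdkn1c, Grb10, Igf2r and Plagl1 had 1 spot each. Dlk1 had no qualifying spot and was not analysed here. Where a gene had several spots, their mean on each array stood for it, and all 9 genes had enough values for every test.

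The study followed the lungs of BALB/c mice, an inbred strain, through chronic hypoxia and the return to normal air, a model of hypoxic pulmonary hypertension and vessel remodelling. Groups breathed air at 0.5 atm over 1, 3, 7, 14 or 21 days. Further groups spent 1, 3, 7 or 14 days at sea level after 21 days of hypoxia and are called days 22, 24, 28 and 35 here. On each spotted 2-colour cDNA array, RNA pooled from the whole lungs of 5 exposed mice was set against RNA pooled from 5 control mice of the same time point. Each day had 4 arrays, 36 in all, of which 20 covered hypoxia and 16 covered recovery. The labels name no genetic change and no drug in any group, and they do not give the age or sex of the mice. Since they mention just 1 exposed and 1 control pool at each day, a test at 1 day measures how arrays vary, possibly for technical reasons, and not how mice vary.

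Every value below is a log2 ratio: 0 means equal signal in both pools, and 1 means a doubling. Values above 0 are read as higher in the exposed lung. That reading is probable but not settled: the labels name the exposed pool and Cy5 before the control pool and Cy3, and record no dye swap. A ratio holds no level, so genes could not be ranked by abundance and the lung identity of the samples could not be checked from marker levels. In whole lung, fewer cells of a type and less RNA per cell cannot be told apart. Double-stranded cDNA spots also do not separate a gene from an antisense partner.

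In an imprinted gene, DNA methylation laid down in egg or sperm at a control region leaves 1 parental copy active and the other silent. Many such genes are strongly expressed in the fetus and fall after birth, and as a group they are known for setting growth, with paternally expressed members often promoting it and maternally expressed members often limiting it. Mest encodes an enzyme-like protein of the alpha/beta hydrolase fold and is active in embryonic mesoderm and in growing fat, while Peg3 encodes a large zinc finger protein. Both are expressed from the paternal copy, and in both the methylated control region covers the promoter and the start of the gene.

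The bases before the annotated starts of these genes are shown because Mest was the member called between the phases and Peg3 had the highest day mean. CG pairs are the sites that can carry a parental mark. Methylation was not measured, and which of these windows lie in a control region was not checked. Sequences are from RefSeq on GRCm38.p6, 250 bases long, ending just before a transcript start, and written 5' to 3' on the gene's strand with each CG pair in capitals.
Mest, upstream start, chr6:30733256-30733505 (+): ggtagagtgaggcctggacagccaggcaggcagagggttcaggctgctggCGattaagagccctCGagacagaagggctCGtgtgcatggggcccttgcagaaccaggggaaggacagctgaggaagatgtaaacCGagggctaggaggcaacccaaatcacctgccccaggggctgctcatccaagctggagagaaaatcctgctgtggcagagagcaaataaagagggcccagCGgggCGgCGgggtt
Mest, downstream start, chr6:30737800-30738049 (+): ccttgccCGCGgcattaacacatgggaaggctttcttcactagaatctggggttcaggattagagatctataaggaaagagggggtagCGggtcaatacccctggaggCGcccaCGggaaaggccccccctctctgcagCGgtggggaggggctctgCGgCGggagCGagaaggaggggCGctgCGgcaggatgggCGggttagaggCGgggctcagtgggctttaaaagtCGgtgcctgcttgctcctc
Peg3, chr7:6730420-6730669 (-): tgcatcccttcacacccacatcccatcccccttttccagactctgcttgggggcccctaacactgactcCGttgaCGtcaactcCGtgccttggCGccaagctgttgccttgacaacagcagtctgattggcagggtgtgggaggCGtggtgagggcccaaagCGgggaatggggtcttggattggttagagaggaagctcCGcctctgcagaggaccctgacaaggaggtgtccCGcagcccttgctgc
The upstream Mest window held 7 CG pairs, the downstream Mest window 14 and the Peg3 window 8, against a median of 6 over 32851 windows of the same length. The letters ACGTG and GCGTG, which make up the core that hypoxia-inducible factors bind, were searched on both strands, where a CACGTG counts on each strand. A further Mest window that begins 3 bases after the downstream one is not shown, and it also held 14 CG pairs. None of the 3 Mest windows held either motif, and the Peg3 window held GCGTG 1 time. Of all windows, 16.57% held ACGTG, 28.16% held GCGTG and 38.60% held at least 1 of them. A match is a run of letters and not a shown binding site, and the absence of these letters applies to these windows alone. The array data do not show from which start a transcript came. Windows were found for 6 of the 9 measured genes.

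The arrays held values for 14186 to 15042 spots, and 10 of the 684 member values (19 spots on 36 arrays) were missing. The days differed in how far ratios spread over all genes: the SD of the day means ran from 0.14 at day 22 to 0.31 at day 7. The SD over the spots of 1 array ran from 0.17 (day 24, replicate 4) to 0.52 (day 28, replicate 1). Tests were made with limma, with p-values adjusted over all features by the Benjamini-Hochberg method and a threshold of 0.05, and a gene is called changed where it passed. For the phases of hypoxia and recovery the 9 day means were the replicates, and for single days the arrays were.

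Over the hypoxia phase 2 of the 9 members were called, Mest and Grb10, both higher, while 42.4% of all features were called in either direction. None was called over the recovery phase, where 4.77% of all features were. The median of the 9 members was 0.02 over hypoxia and 0.02 over recovery, with members on both sides of 0 in each phase. Between the phases Mest alone was called, 1 of 9 against 0.0329% of all features. Over the 9 single days there were 24 calls out of 81, 16 higher and 8 lower, and they came from 6 genes. The share of all features called at a day ran from 1.56% to 35.9%. In these fits Igf2, Igf2r and Peg10 were called at no day, in no phase and in no difference between days, but each passed the threshold at some day under another setting.

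**Figure D1:**
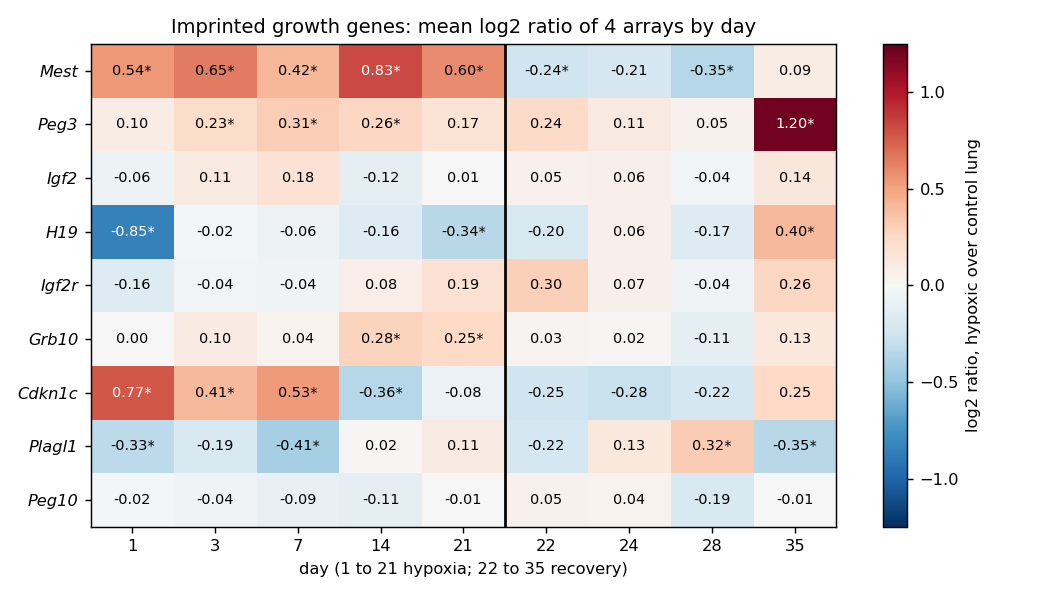
Mean log2 ratio of 4 arrays for each of the 9 measured imprinted growth genes (rows) at each day (columns), with red for higher and blue for lower in the exposed lung and a star where limma's adjusted p was under 0.05. Mest was above 0 from day 1 to day 21 and below 0 from day 22 to day 28, H19 was lowest at day 1 (-0.85), and the highest value of the map was Peg3 at day 35 (1.20).

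Mest was higher than the control at every hypoxia day, and this was gone within a day of recovery. In the main fits no later hypoxia day was called against day 1. Its mean over the 5 hypoxia days was 0.61 ± 0.15 (SD over 5 day means), a 1.52-fold higher signal (SE 0.07, adjusted p = 0.00015). All 20 hypoxia arrays were above 0, from 0.28 to 0.98 with a median of 0.58. Over recovery the mean was -0.18 ± 0.19 (SD over 4 day means, adjusted p = 0.134), and 12 of 16 arrays were below 0. The difference between the phases was 0.79 (SE 0.10, adjusted p = 0.023), which was the 5th highest of 12159 features.

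The single arrays show how separate the phases were. At day 1 the 4 arrays read 0.56, 0.61, 0.53 and 0.47, at day 3 they read 0.53, 0.98, 0.61 and 0.46, and at day 7 they read 0.54, 0.53, 0.32 and 0.28. At day 14 they read 0.94, 0.72, 0.86 and 0.79, and at day 21 they read 0.67, 0.48, 0.63 and 0.60. Day 14 had the highest mean, 0.83 ± 0.10 (SD, n = 4), or 1.77-fold, and its arrays overlapped with those of day 3. After 1 day at sea level the arrays read -0.24, -0.17, -0.22 and -0.34, and at day 24 they read -0.19, -0.19, -0.14 and -0.34. At day 28 they read -0.48, -0.30, -0.30 and -0.33, and at day 35 they read 0.19, 0.14, 0.00 and 0.03. No array of days 22 to 35 reached the lowest array of hypoxia.

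All 5 hypoxia days were called higher for Mest, with adjusted p from 1.6e-11 at day 14 to 4.44e-06 at day 7, where the mean of 0.42 became 0.27 with the arrays scaled to a common spread. Days 22 (-0.24, adjusted p = 0.0361) and 28 (-0.35, adjusted p = 5.99e-05) were called lower, while day 24 (-0.21, adjusted p = 0.0584) and day 35 (0.09, adjusted p = 0.852) were not. The call at day 22 was lost without replicate 1 (-0.25, adjusted p = 0.263), replicate 3 (-0.25, adjusted p = 0.285) or replicate 4 (-0.21, adjusted p = 0.281). Leaving out a replicate, here and below, takes 1 array from every day for all features. A call can then be lost although its value hardly moves, as here without replicate 1 or 3. Against day 21, Mest fell by 0.84 at day 22, by 0.81 at day 24, by 0.95 at day 28 and by 0.51 at day 35, each called, with adjusted p from 9.56e-09 to 0.000844. Only the last of these was lost when 1 replicate was left out (-0.47, adjusted p = 0.1, without replicate 3). The gain from day 1 to day 14 (0.28, adjusted p = 0.0604) passed without replicate 2 (0.34, adjusted p = 0.0342).

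In the order of its day means, Mest ran from day 14 through days 3, 21, 1 and 7, and then days 35, 24, 22 and 28. Neighbours in this order overlapped in their arrays, except that day 7 stood above day 35 and day 35 above day 24. The mean of replicates 1 and 2 over hypoxia was 0.66 and that of replicates 3 and 4 was 0.55, and over recovery the means were -0.15 and -0.21. The difference between the phases missed the threshold when day 3 (0.78, adjusted p = 0.0715), day 22 (0.76, adjusted p = 0.0981), day 24 (0.77, adjusted p = 0.108) or day 28 (0.73, adjusted p = 0.0699) was left out. It also missed it with the arrays scaled to a common spread (0.71, adjusted p = 0.0548).

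**Figure D2:**
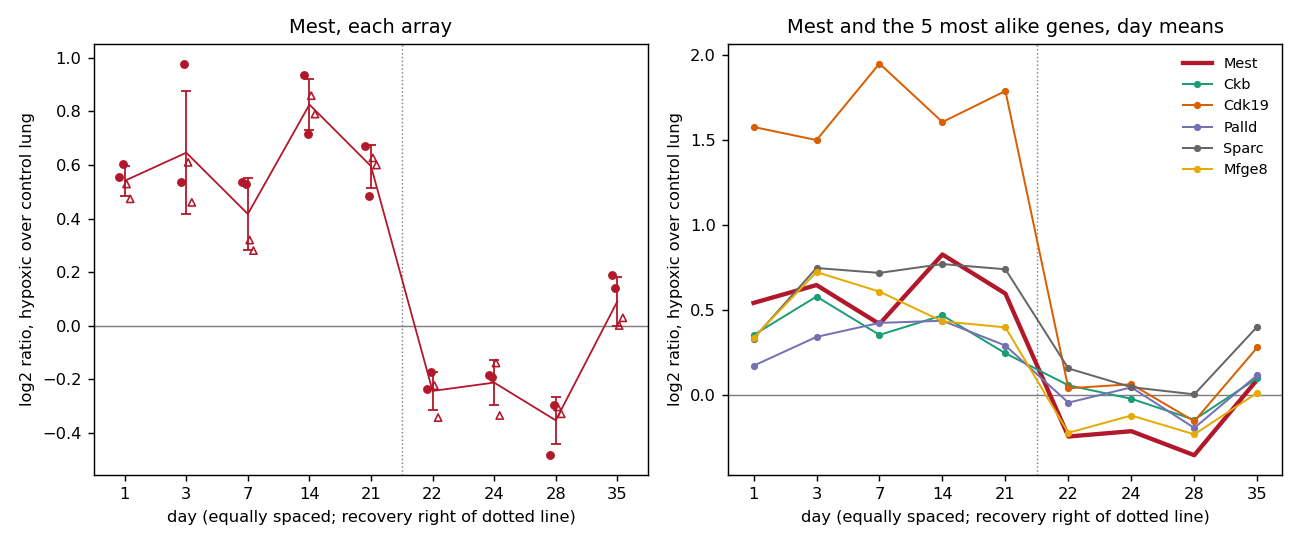
Left, log2 ratio of Mest on each of the 36 arrays (filled circles, replicates 1 and 2; open triangles, replicates 3 and 4), with day means joined by a line and bars of 1 SD. Right, day means of Mest and of the 5 genes whose day means were most like it; days are equally spaced on the axis and recovery lies right of the dotted line, where Mest falls from 0.60 at day 21 to -0.24 at day 22.

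The genes most like Mest were sought by Pearson r over the 9 day means among 844 genes whose day means had an SD of at least 0.2. They were Ckb (r = 0.93), Cdk19 (r = 0.93), Palld (r = 0.91), Sparc (r = 0.91) and Mfge8 (r = 0.91). Ckb is brain-type creatine kinase, Cdk19 a kinase of the Mediator complex, Palld an actin-binding protein, Sparc a collagen-binding matrix protein and Mfge8 a secreted protein that marks dying cells for uptake. Cdk19 had the widest range, with 1.58 at day 1, 1.95 at day 7 and 1.79 at day 21, and from -0.15 to 0.28 over the recovery days. Sparc lay between 0.33 and 0.77 in hypoxia and between 0.00 and 0.40 in recovery. The points share the same arrays, and the list depends on the measure: 2 of the 5 were also among the 5 most like by r over 36 arrays, 1 by Spearman's rho, and none once the limit on the SD was dropped.

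Some cell type markers moved over the same days. Of 9 mesenchymal and pericyte markers measured (of 14 listed), 4 were called higher over hypoxia (Col3a1 0.71, Col1a1 0.64, Vim 0.60 and Col1a2 0.57) and 1 lower (Pdgfra -0.22), and none was called over recovery, against 42.4% of all features over hypoxia and 4.77% over recovery. Their median ran from 0.00 to 0.58 over the hypoxia days and from -0.20 to 0.29 over the recovery days. The 0.58 was at day 7, where the median was 0.35 over the 8 of them with enough arrays for a test. Of 4 smooth muscle markers (of 9), 3 were higher over hypoxia (Cald1 0.38, Myl9 0.30 and Smtn 0.23), with day medians from 0.13 to 0.40 in hypoxia and from -0.18 to 0.12 in recovery, and Cnn1 was lower over recovery (-0.32). Of 4 endothelial markers (of 12), 3 were higher (Emcn 0.66, Gja4 0.48 and Cdh5 0.27) and Ednrb (-0.66) was lower, and Emcn stayed called over recovery (0.55, adjusted p = 0.0445). Of 4 macrophage markers 3 were lower over hypoxia, led by Cybb (-0.62), which was also lower over recovery (-0.33), and of 3 erythroid markers 2 were higher, Hbb-b1 (0.99) and Alas2 (0.63). Both airway markers measured were lower over hypoxia, Aldh1a1 (-0.45, and -0.31 over recovery) and Dnah5 (-0.16), while of 5 alveolar type II markers Muc1 (0.37) and Lpcat1 (0.29) were higher and Slc34a2 (-0.60) lower. Of 10 adipocyte markers Lpl alone was measured, and it was lower over hypoxia (-0.60). The part of these cell types in the Mest values was not tested.

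Peg3 had its main change at the far end of recovery. At day 35, after 14 days at sea level, its mean was 1.20 ± 0.14 (SD, n = 4), a 2.30-fold higher signal (adjusted p = 5.91e-14) and the 37th highest of 12461 features. The 4 arrays read 1.35, 1.28, 1.16 and 1.03, and no array of any other day exceeded 0.53. Relative to day 21 the gain was 1.03 (SE 0.10, adjusted p = 4.86e-08), or 1.61 with the arrays scaled to a common spread. The rise at day 35 passed the threshold without each replicate in turn, at 1.15 to 1.26. It also held in replicates 1 and 2 alone (1.31) and in replicates 3 and 4 alone (1.09).

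At the other days Peg3 lay nearer to the control, with day means from 0.05 at day 28 to 0.31 at day 7. In hypoxia the arrays read 0.25, 0.13, -0.03 and 0.04 at day 1, 0.11, 0.53, 0.15 and 0.14 at day 3, and 0.21, 0.36, 0.29 and 0.38 at day 7. They read 0.34, 0.12, 0.18 and 0.39 at day 14 and -0.01, 0.21, 0.20 and 0.28 at day 21. In early recovery they read 0.27, 0.19, 0.26 and 0.24 at day 22, 0.08, 0.18, -0.01 and 0.19 at day 24, and 0.36, -0.11, -0.10 and 0.06 at day 28. Most of these arrays were above 0, and days 3 (0.23, adjusted p = 0.0168), 7 (0.31, adjusted p = 0.00107) and 14 (0.26, adjusted p = 0.00814) were called higher. Those calls were lost with the arrays scaled to a common spread, at 0.16 (adjusted p = 0.272), 0.19 (adjusted p = 0.126) and 0.18 (adjusted p = 0.18). The call at day 3 was also lost without replicate 2 (0.14, adjusted p = 0.271) or replicate 3 (0.26, adjusted p = 0.0554), and that at day 14 without replicate 4 (0.21, adjusted p = 0.103). In the order of day means, day 35 stood alone, and all 8 other days overlapped with their neighbours.

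No phase was called for Peg3, at 0.21 over hypoxia (adjusted p = 0.196) and 0.40 ± 0.54 over recovery (SD over 4 day means, adjusted p = 0.0943). With day 35 left out of the fit, whose spread the phases share, the hypoxia mean of 0.21 passed the threshold (adjusted p = 0.0036). The 2 Peg3 spots were both called at day 35 and differed in their calls before it, with r = 0.90 between their 9 day means and r = 0.54 over the 36 arrays. Spot 1 read 1.11, 0.99, 1.28 and 0.78 at that day and spot 2 read 1.60, 1.56, 1.05 and 1.27. At the other days spot 1 averaged between -0.02 and 0.15 and spot 2 between 0.09 and 0.53. Spot 2 alone was called higher at days 3 (0.44), 7 (0.47) and 14 (0.53), and spot 1 at none of them. In replicates 1 and 2 spot 2 was higher than in replicates 3 and 4 at 9 of 9 days, while spot 1 was higher in them at 2 of 9.

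**Figure D3:**
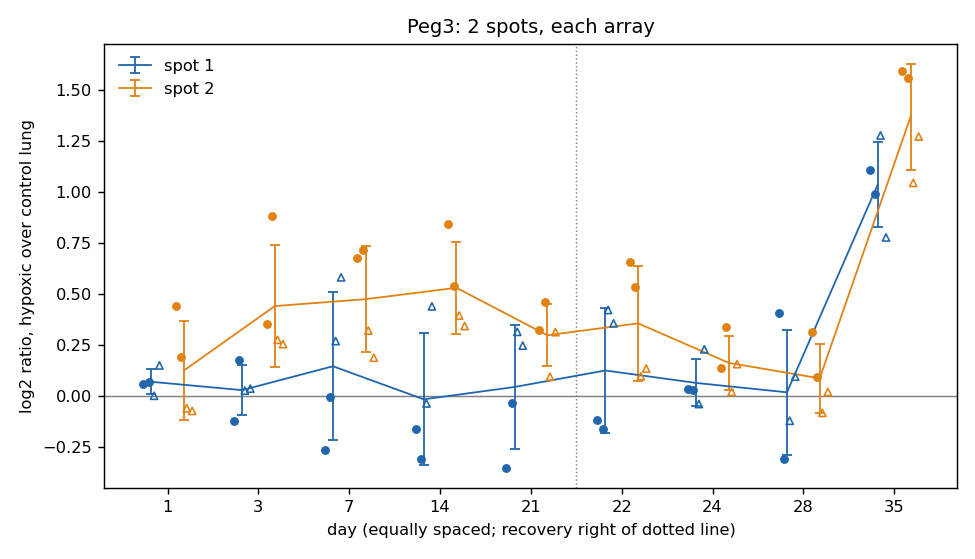
Log2 ratio of the 2 Peg3 spots (blue, spot 1; orange, spot 2) on each of the 36 arrays (filled circles, replicates 1 and 2; open triangles, replicates 3 and 4), with day means joined by lines and bars of 1 SD; days are equally spaced and recovery lies right of the dotted line. Both spots rise at day 35, to 1.04 for spot 1 and 1.37 for spot 2, and the mean of spot 2 lies above that of spot 1 at every day.

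By the same rule, the genes most like Peg3 were Sorbs2 (r = 0.92), Noct (r = 0.85), Prnd (r = 0.83), Procr (r = 0.82) and Hmox1 (r = 0.77). Sorbs2 is an adapter at actin fibres, Noct a circadian enzyme, Prnd a relative of the prion protein, Procr the endothelial protein C receptor, and Hmox1 the stress-induced heme oxygenase. All 5 had their highest mean at day 35, from 0.49 for Procr to 2.18 for Prnd. Day 35 carries these likenesses, since Spearman's rho over the same 9 days was 0.22 to 0.45 for the 4 genes other than Procr (0.82). Of the 5, 4 were also among the most like by r over the 36 arrays, none by Spearman's rho, and 1 without the limit on the SD.

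At day 35, 3 of the 9 members were called, Peg3 and H19 higher and Plagl1 lower, against 3.16% of all features. Markers of several cell types stood apart at that day too. Of 3 erythroid markers measured (of 6 listed), Hbb-b1 (1.64), a globin, and Alas2 (0.83), which starts heme synthesis in red cells, were higher, with a median of 0.83. Of 9 mesenchymal markers, 3 were higher (Vim 0.87, Lum 0.43 and Col3a1 0.32) and none lower, with a median of 0.29. Emcn (1.16) was higher and Ednrb (-0.48) lower among 4 endothelial markers, and Cdk1 (0.87) and Top2a (0.67) were higher among 9 of cell division. Smtn (0.49) was higher among 4 smooth muscle markers. Cybb (-0.50) was lower among 4 macrophage markers, Aldh1a1 (-0.52) among 2 airway markers, and Lpl (-0.37), the adipocyte marker measured, was lower. None of 5 alveolar type II markers was called. Their part in the Peg3 value was not tested.

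H19, a long noncoding RNA made from the maternal copy, was lower at the start of hypoxia and higher at day 35. At day 1 the average of its 8 spots read -0.86, -0.55, -0.99 and -0.98, a mean of -0.85 ± 0.21 (SD, n = 4), or 0.557 times the control (adjusted p = 2.98e-08) and the 44th lowest of 12354 features. At day 35 it read 0.41, 0.68, 0.36 and 0.16, a mean of 0.40 ± 0.21 (adjusted p = 0.00561). No array of day 1 overlapped with those of the day next above it, and all arrays of day 35 were above 0. Relative to day 1, H19 was higher by 0.83 at day 3, 0.79 at day 7, 0.69 at day 14 and 0.50 at day 21, each called, with adjusted p from 0.000173 to 0.0452. Relative to day 21 it was higher by 0.75 at day 35 (adjusted p = 0.000538).

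Between those ends H19 stayed nearer to the control. At day 21 its arrays read -0.21, -0.25, -0.46 and -0.46, a mean of -0.34 that was called lower (adjusted p = 0.0201). That call was lost without replicate 1 (-0.39, adjusted p = 0.103), 3 (-0.31, adjusted p = 0.163) or 4 (-0.31, adjusted p = 0.189). At day 35 the call was lost without replicate 1 (0.40, adjusted p = 0.0958) or 3 (0.42, adjusted p = 0.0509), and the value was 0.61 with the arrays scaled to a common spread. The gain from day 1 to day 21 was lost without replicate 1 (0.45, adjusted p = 0.438), 3 (0.49, adjusted p = 0.349) or 4 (0.50, adjusted p = 0.31) and with scaled arrays (0.48, adjusted p = 0.0674). Over hypoxia the mean was -0.29 ± 0.34 (SD over 5 day means, adjusted p = 0.0558). It was called without replicate 1 (-0.31, adjusted p = 0.0382) or 2 (-0.35, adjusted p = 0.0223) and without day 3 (-0.35, adjusted p = 0.0472) or 35 (-0.29, adjusted p = 0.0389). Without replicate 2, days 14 (-0.29, adjusted p = 0.012) and 28 (-0.21, adjusted p = 0.0468) were called lower as well. Over recovery the mean was 0.03 (adjusted p = 0.906). In the average of the H19 spots, replicates 1 and 2 were higher than replicates 3 and 4 at 9 of 9 days, by 0.08 to 0.48. At day 14 the 2 pairs averaged 0.08 and -0.40, and at day 35 they averaged 0.55 and 0.26.

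At days 1 and 35 the 8 H19 spots differed in size more than in direction. At some other days their means lay on both sides of 0, as at day 3 (from -0.15 for spot 6 to 0.12 for spot 2). At day 1, 7 of the 8 spots were called lower, with means from -1.21 for spot 5 to -0.47 for spot 2. Spot 8 was not called there, at -0.10, and its arrays ran from -0.29 to 0.00. Spot 1 read -1.20, -1.03, -1.47 and -1.09 at day 1 and 0.60, 0.81, 0.68 and 0.53 at day 35, so these arrays did not overlap. At day 35 all 8 spot means were above 0, from 0.13 for spot 2 to 0.65 for spot 1, and spots 1, 3 and 4 were called. Between them the spots parted at day 7, where spot 6 was called lower (-0.34) and spot 7 higher (0.28). Over the 9 day means the 28 pairs of spots correlated with r from 0.34 to 0.99 and a median of 0.90, over the same arrays.

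**Figure D4:**
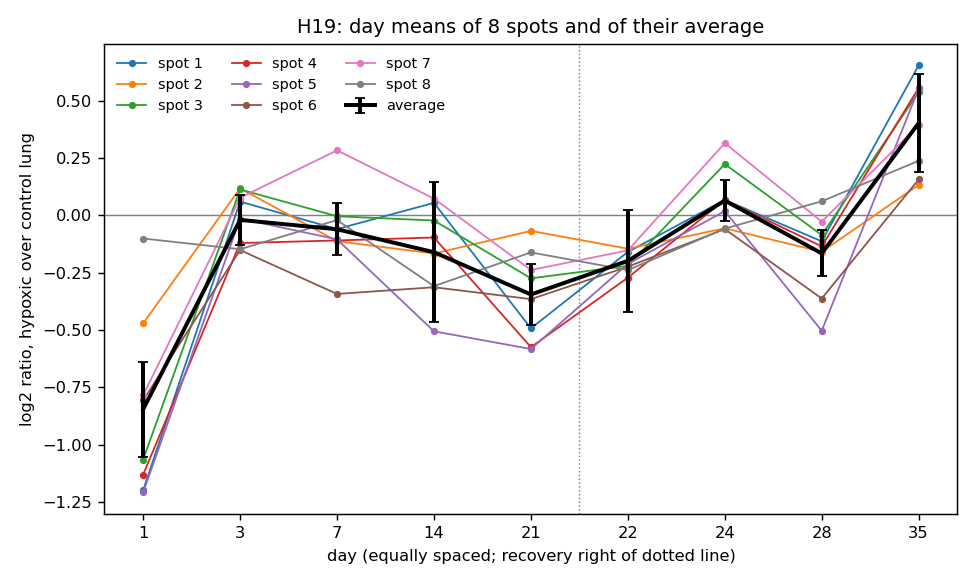
Day means of log2 ratio for the 8 H19 spots (thin lines) and for their average (thick line, bars of 1 SD over 4 arrays); days are equally spaced and recovery lies right of the dotted line. At day 1, 7 spots lie at or below -0.47 and spot 8 at -0.10; at day 35 all 8 lie above 0.

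Igf2 lies beside H19 on chromosome 7, encodes a fetal growth factor and is made from the paternal copy, the 2 genes sharing a control region. It showed no call: its day means ran from -0.12 at day 14 to 0.18 at day 7, with adjusted p of at least 0.0739. Without replicate 3, day 7 passed (0.27, adjusted p = 0.0318). At day 1, where H19 was lowest, Igf2 read -0.06, -0.13, -0.01 and -0.05. Its 2 spots correlated with r = 0.80 over the 9 day means but r = 0.12 over the 36 arrays. Spot 1 was higher in replicates 1 and 2 than in replicates 3 and 4 at 9 of 9 days, and spot 2 at 3 of 9.

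Igf2r carries IGF2 to lysosomes and so removes it, and Grb10 is an adapter that dampens signals from the insulin and IGF1 receptors. Igf2r was not called, with day means from -0.16 at day 1 to 0.30 at day 22. At day 22 its arrays read 0.61, 0.51, 0.03 and 0.05, and at day 35 they read 0.49, 0.47, 0.06 and 0.02, so replicates 1 and 2 stood apart from replicates 3 and 4. Replicates 1 and 2 were higher at 9 of 9 days, by 0.13 to 0.52, and in them alone the recovery mean was called (0.33, adjusted p = 0.0294). In replicates 3 and 4 alone that mean was -0.04 (adjusted p = 0.733). With the arrays scaled to a common spread, day 35 passed (0.41, adjusted p = 0.0102).

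Grb10 was slightly higher late in hypoxia. Its arrays read 0.25, 0.03, 0.42 and 0.41 at day 14 (mean 0.28, adjusted p = 0.00115) and 0.24, 0.12, 0.30 and 0.32 at day 21 (mean 0.25, adjusted p = 0.0166). Both days were called, the hypoxia mean was 0.13 ± 0.12 (SD over 5 day means, adjusted p = 0.0471), and Grb10 fell by 0.36 from day 21 to day 28 (adjusted p = 0.0132). In Grb10, replicates 1 and 2 were lower than replicates 3 and 4 at 9 of 9 days, and the hypoxia mean was 0.05 (adjusted p = 0.506) in the former alone and 0.22 (adjusted p = 0.00687) in the latter.

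The calls of Grb10 were fragile. The hypoxia call was lost without replicate 3 (0.11, adjusted p = 0.098) or 4 (0.10, adjusted p = 0.161), and with the arrays centred on their median (0.11, adjusted p = 0.0997) or scaled (0.10, adjusted p = 0.152). It was also lost when day 3 (0.14, adjusted p = 0.0794), 7 (0.16, adjusted p = 0.0506), 14 (0.10, adjusted p = 0.167), 21 (0.11, adjusted p = 0.15), 22 (0.13, adjusted p = 0.0624) or 24 (0.13, adjusted p = 0.0669) was left out. The call at day 14 was lost without replicate 3 (0.23, adjusted p = 0.0511), and that at day 21 without replicate 1 (0.25, adjusted p = 0.155), 3 (0.23, adjusted p = 0.16) or 4 (0.22, adjusted p = 0.136). The fall to day 28 was lost without replicate 1 (-0.33, adjusted p = 0.263) or 3 (-0.33, adjusted p = 0.101). The gain from day 1 to day 14 (0.27, adjusted p = 0.0726) passed without replicate 2 (0.35, adjusted p = 0.0336).

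Cdkn1c, whose product p57 blocks cyclin-dependent kinases and which is made from the maternal copy, was high early in hypoxia and then fell below the control. Its arrays read 1.07, 0.75, 0.94 and 0.33 at day 1, 0.31, 0.75, 0.08 and 0.48 at day 3, and 0.55, 0.80, 0.41 and 0.35 at day 7. All of these were above 0, and the means of 0.77 ± 0.32 (1.71-fold, adjusted p = 5.36e-07), 0.41 ± 0.28 (adjusted p = 0.00196) and 0.53 ± 0.20 (adjusted p = 5.94e-05) were called. At day 14 the arrays read -0.17, -0.32, -0.48 and -0.45, a mean of -0.36 ± 0.14 that was called lower (adjusted p = 0.0057). From day 1 Cdkn1c fell by 1.13 to day 14 (adjusted p = 5.67e-07), the 22nd lowest of 12100 features, and by 0.85 to day 21 (adjusted p = 0.000393).

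After day 14 no Cdkn1c mean was called. Day 21 averaged -0.08, and days 22, 24 and 28 averaged -0.25, -0.28 and -0.22, with all 12 arrays of these 3 days below 0. Day 35 averaged 0.25, with 3 of 4 arrays above 0. The call at day 3 was lost without replicate 2 (0.29, adjusted p = 0.0553), that at day 14 without replicate 3 (-0.31, adjusted p = 0.0586), and the fall from day 1 to day 21 without replicate 3 (-0.73, adjusted p = 0.0798). With the arrays scaled, day 7 was 0.34. Over the hypoxia phase these signs offset each other and the mean was 0.26 ± 0.46 (SD over 5 day means, adjusted p = 0.149), or 0.41 without day 14 (adjusted p = 0.0221). Of 9 cell division markers measured (of 10 listed), 3 were higher over hypoxia (Ccnb2 0.50, Cdk1 0.50 and Lig1 0.40), against 42.4% of all features called. The 9 markers had day medians of 0.09 at day 1, 0.60 at day 3, 0.48 at day 7 and 0.16 at day 14. Their relation to the Cdkn1c values was not tested.

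Plagl1, a paternally expressed zinc finger protein that can arrest the cell cycle, ran lower early in hypoxia. Its arrays read -0.26, -0.04, -0.53 and -0.50 at day 1 (mean -0.33, adjusted p = 0.00225) and -0.35, -0.28, -0.32 and -0.70 at day 7 (mean -0.41, adjusted p = 7.47e-05). Both means were called lower, and all 12 arrays of days 1, 3 and 7 were below 0. At day 28 the arrays read 0.68, 0.22, 0.10 and 0.28 (mean 0.32, adjusted p = 0.00145), and at day 35 they read -0.24, -0.24, -0.45 and -0.46 (mean -0.35, adjusted p = 0.00445). Plagl1 was thus called higher at day 28 and lower at day 35, and these 2 sets of arrays did not overlap. The 0.68 at day 28 came from replicate 1, the array with the widest spread over all spots (SD 0.52). From day 1 to day 21 it rose by 0.44 (adjusted p = 0.0305), and from day 21 to day 35 it fell by 0.46 (adjusted p = 0.0211).

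Of the 6 Plagl1 calls, the one at day 7 passed without each replicate in turn and the other 5 did not. The call at day 1 was lost without replicate 3 (-0.27, adjusted p = 0.0692), its mean being -0.15 in replicates 1 and 2 and -0.51 in replicates 3 and 4, that at day 28 without replicate 1 (0.20, adjusted p = 0.137), and that at day 35 without replicate 3 (-0.31, adjusted p = 0.105) or 4 (-0.31, adjusted p = 0.084). The rise to day 21 was lost without any of replicates 1 (0.45, adjusted p = 0.138), 2 (0.52, adjusted p = 0.0696), 3 (0.37, adjusted p = 0.457) or 4 (0.43, adjusted p = 0.224). The fall from day 21 to day 35 was lost without any of replicates 1 (-0.48, adjusted p = 0.103), 2 (-0.47, adjusted p = 0.119), 3 (-0.42, adjusted p = 0.282) or 4 (-0.46, adjusted p = 0.138).

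Peg10, a paternally expressed gene derived from a retrotransposon and needed in the placenta, had no call. Its day means ran from -0.19 at day 28, where all 4 arrays were below 0 (-0.31, -0.17, -0.11 and -0.15, adjusted p = 0.0796), to 0.05 at day 22. Day 28 passed with the arrays centred on their median (-0.22, adjusted p = 0.0315) or scaled (-0.19, adjusted p = 0.0308). Its 2 spots correlated with r = 0.40 over the 9 day means and r = 0.07 over the 36 arrays.

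**Figure D5:**
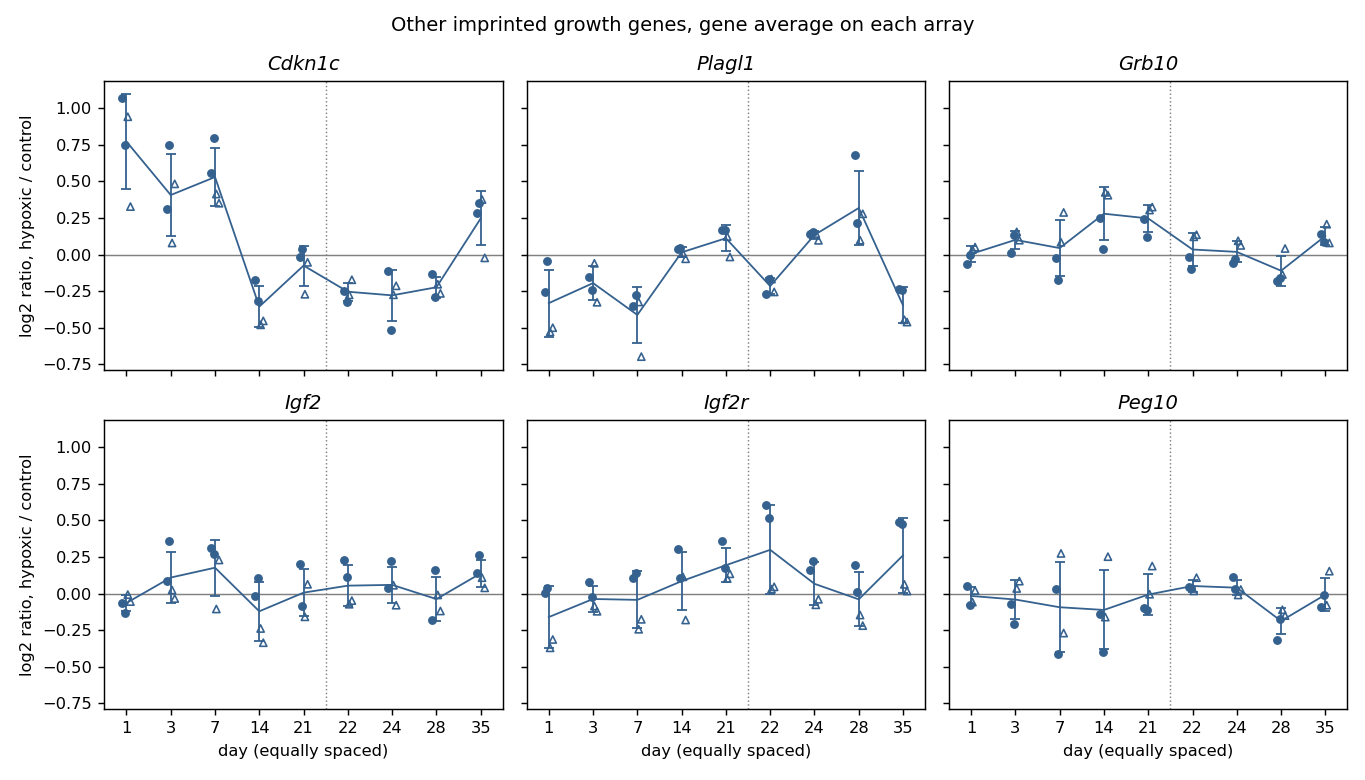
Log2 ratio on each of the 36 arrays for the 6 other measured genes (filled circles, replicates 1 and 2; open triangles, replicates 3 and 4), with day means joined by lines and bars of 1 SD; days are equally spaced and recovery lies right of the dotted line. Cdkn1c goes from 0.77 at day 1 to -0.36 at day 14, Plagl1 is lowest at day 7 (-0.41), and in Igf2r replicates 1 and 2 lie above replicates 3 and 4 on average at every day.

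The calls by day can be set against the share of all features called. At day 1, 2 members were higher (Mest and Cdkn1c) and 2 lower (H19 and Plagl1), against 19.7% of all features. At day 3, 3 were higher (Mest, Peg3 and Cdkn1c), against 23.3%, and at day 7 the same 3 genes were higher and Plagl1 lower, against 35.9%. At day 14, 3 were higher (Mest, Peg3 and Grb10) and Cdkn1c was lower, against 27.8%. At day 21, Mest and Grb10 were higher and H19 lower, 3 of 9 against 4.52%. In recovery Mest alone was called at day 22, against 1.56%, and no member at day 24, against 2.91%. At day 28, Plagl1 was higher and Mest lower, against 32.1%.

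For the differences between days the shares of all features were lower. Against day 21, 1 member was called at day 22 (0.609% of all features), 1 at day 24 (0.312%), 2 at day 28 (6.41%) and 4 at day 35 (1.07%). Mest was among them each time, joined by Grb10 at day 28 and by Peg3, H19 and Plagl1 at day 35. Against day 1, 1 member was called at day 3 (1.18%), 1 at day 7 (3.96%), 2 at day 14 (4.52%) and 3 at day 21 (0.977%). H19 was among these each time, joined by Cdkn1c at days 14 and 21 and by Plagl1 at day 21. These differences share the arrays of day 21 or day 1. Over the 36 pairs of members, r between day means ran from -0.75 for Cdkn1c and Plagl1 to 0.72 for Mest and Grb10, on 9 points from the same arrays.

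Among other imprinted genes, calls in hypoxia were about as frequent as over all features. Of 61 listed, 21 were tested, 8 were higher and 2 lower, against 42.4% of all features called, with a median of 0.07 against 0.03 over all features. The largest were Dcn (-0.84), a collagen-binding proteoglycan imprinted in placenta, Tssc4 (0.49), Cd81 (0.42) and Usp29 (0.38). Over recovery Airn (0.32, adjusted p = 0.0323), a noncoding RNA antisense to Igf2r, was called alone, 1 of 21 against 4.77% of all features. Airn was also higher over hypoxia (0.35). Usp29, the neighbour of Peg3, was highest at day 14 (0.87) and averaged 0.18 at day 35, where Peg3 peaked. Copg2, the neighbour of Mest, was higher over hypoxia (0.22), with means of 0.14 to 0.27 in hypoxia and -0.08 to 0.12 in recovery. In the chromosome 7 cluster that holds H19, Igf2 and Cdkn1c, the genes Tssc4, Cd81 and Nap1l4 (0.23) were higher over hypoxia. Ano1, within 2 Mb of Igf2 and Cdkn1c, was higher as well (0.22). Phlda2 (0.12), Th (0.08) and Tnfrsf23 (-0.12) were not called, nor were Igf2, H19 and Cdkn1c. Kcnq1ot1 and Dhcr7, also measured there, were not tested over the phases. Sgce, the neighbour of Peg10, lay between -0.12 and 0.13 at all 9 days.

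Around IGF signalling, 27 genes were listed and 15 tested over hypoxia. Of these 2 were higher and 5 lower, a share of calls near the 42.4% of all features, with a median of -0.11 against 0.03 over all features. Igfbp3, the main carrier of IGFs in blood, was lowest at -1.07 (adjusted p = 0.000306), and the carriers Igfbp7 (-0.36) and Igfbp4 (-0.31) were lower while Igfbp5 (0.31) was higher. The receptor Igf1r was lower as well (-0.20, adjusted p = 0.0131), and its day means ran from -0.35 to 0.05 over hypoxia. Over recovery Igfbp7 alone was called (-0.27, adjusted p = 0.0444), 1 of 15 against 4.77% of all features.

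Of 23 genes linked by earlier work to the products of Mest and Peg3, in WNT, p53 and TNF signalling, 7 were tested. Over hypoxia 3 were higher and 2 lower, against 42.4% of all features called, with a median of 0.14 against 0.03 over all features. They were Siah2 (0.35) and Mdm2 (-0.24), both ubiquitin ligases, the p53 target Ccng1 (-0.28), the secreted signal Wnt2 (0.28) and its family's antagonist relative Dkk3 (0.26). Over recovery Siah2 alone was called (0.34, adjusted p = 0.0491), 1 of 7 against 4.77% of all features. At day 35 it averaged 0.55 (adjusted p = 9.98e-05), again 1 of 7, against 3.16% of all features.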

How the data were processed

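The authors deposited a log2 ratio for each spot and array; per the labels, slides were scanned on a GenePix 4000A, read with GenePix Pro 4.0, background corrected, cleared of poor spots and normalised by lowess. Array means were 0. The channel intensities were not used. Of 15388 spots, 9598 had 1 symbol in the platform annotation, 514 several and 5276 none, and 9510 matched the RefSeq table of GRCm38.p6, with 0 symbols changed. Each array's values for spots of the same gene were replaced by their mean, giving 12761 features.

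Tests were two-sided fits in limma 3.58.1 (lmFit and eBayes, R 4.3.3), adjusted over all features. Phases were fitted on 9 day means (12159 features with at least 2 arrays at each day) and days on 36 arrays (at least 3 of 4 arrays at the days compared). The fits were tested on simulated data of 11517 features, of which 100 were raised by 0.5 in hypoxia and 100 by 1. Every feature also got a small random shift at each day. Features that were not raised made up 8 of 204 calls for the hypoxia phase mean and 12 of 195 for hypoxia minus recovery. They made up 27 of 202 calls for day 21 against control and 29 of 172 for day 35 minus day 21. In these day fits that is a larger share than the threshold implies, and for hypoxia minus recovery a slightly larger one. To a day fit the random shifts are differences, so the size of this excess depends on how they were set. It does not measure the false calls in the real data, where a far larger share of features was called over hypoxia. Calls at single days and between days may still hold more false calls than their adjusted p states. The members are named by the rule; up to 4 genes that passed in a phase were named from each list, the largest first, and the 5 genes most like Mest and Peg3. Lists are described by counts and medians, with no list test. Genes named from marker lists beside a result are those called there. The members and lists were chosen with earlier results of these data known. Alternatives were centring, scaling, single spots, left-out replicates or days, replicates 1 and 2 or 3 and 4 alone, the replicate number as a block, robust eBayes, limits on missing values and fits of the compared days alone.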

Additional observations from a re-analysis of the deposited data

Results flagged for a closer look

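Of 99 groups of 4 or 5 values of the members, 6 held a value far from the others by Dixon's test, and about 5% would by chance. Among arrays of a day, Mest in replicate 1 at day 28 (-0.48) lay below the other 3 (-0.33 to -0.30), and Peg3 in replicate 2 at day 3 (0.53) lay above the others (0.11 to 0.15). Plagl1 in replicate 4 lay low at day 7 (-0.70, others -0.35 to -0.28) and at day 24 (0.10, others 0.14 to 0.15). Among the 4 recovery days, day 35 stood above the others for Peg3 (1.20, others 0.05 to 0.24) and for Cdkn1c (0.25, others -0.28 to -0.22). Mest differed between hypoxia and recovery by 0.79 in the fit of both phases.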

How the results depend on the processing

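Over 180 results of the members, 2934 values under alternatives were computed: 2738 stayed on the same side of the threshold, of which 162 changed sign while called in neither setting, 70 passed it newly, 121 no longer passed it and 5 turned sign. The 5 were Peg3 spot 1 at day 14 (-0.017), H19 spot 7 at day 7 (0.28), and H19 spot 8 for days 3, 14 and 21 minus day 1 (-0.047, -0.21 and -0.061); the cause was not tested here or below. Mest hypoxia minus recovery missed the threshold with arrays scaled (0.71) and without day 3 (0.78), 22 (0.76), 24 (0.77) or 28 (0.73), and Peg3 over hypoxia passed it without day 35 (0.21). The number of members called over hypoxia (2) was 1 with arrays scaled, in replicates 1 and 2 alone, and without day 7, 21, 22 or 24, and 4 without day 35, with 1 to 3 when a replicate was left out. Between the phases (1) it was 0 with arrays scaled and without day 3, 22, 24 or 28, and over recovery (0) it was 1 in replicates 1 and 2 alone. Calls at single days (24 of 81) were 15 with the compared days fitted alone. Calls against day 21 (8 of 36) were 4 in replicates 1 and 2 alone and 5 to 7 without a replicate. Calls against day 1 (7 of 36) were 4 in replicates 1 and 2 alone, 3 with the compared days alone and 4 to 8 without a replicate. With the replicate number as a block there were 12 calls against day 1, 36 at single days and 10 against day 21, and the phase counts were 2, 0 and 1. Among them, Igf2 passed at day 7, Peg10 at day 28, and Igf2r at days 1, 21, 22 and 35, which the fit without a block does not call. The numbers were not taken to pair arrays in the main fit, since no label says what they share. Deviations from day means correlated between arrays of the same number with a median r of 0.38 (lowest -0.18). For the partner number (1 with 2, 3 with 4) it was 0.40 and across these -0.40, and 15 of 36 arrays correlated best with their own number. Deviations within a day add up to 0, so the negative value follows in part from the positive ones. Replicates 1 and 2 thus parted from replicates 3 and 4 over the days, a split for which the main fit has no term. Counts over all features moved by more than 1.5 times under some alternative in every comparison but the hypoxia phase (5152, range 3663 to 6286): recovery 580 (0 without day 24, with 2425 features at an unadjusted p under 0.05, to 3200 scaled), the difference 4 (1 to 124), days 1 to 21 against control 2428 (970 to 3669), 2842 (103 to 4306), 4351 (1961 to 5399), 3395 (566 to 4629) and 557 (47 to 1427), days 22 to 35 192 (66 to 923), 359 (67 to 2332), 3942 (1842 to 5065) and 394 (215 to 1354), the 4 differences from day 21 74 (16 to 140), 38 (12 to 140), 777 (137 to 1384) and 131 (57 to 410), and those from day 1 143 (17 to 296), 475 (66 to 937), 547 (136 to 977) and 119 (9 to 240). Signal over background was not seen, so how dim a member spot was is unknown here.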
